A study of Mus musculus with 12 samples.

Results

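Genes named for the protein-making machinery held 43 of the 2498 cytosines listed in a table of 5-methylcytosine (m5C) in mouse tissues. These sites lay in 32 of the table's 1964 genes. They were taken by gene name: every gene named as a cytosolic ribosomal protein (Rpl, Rps and Rplp), every gene named as a mitochondrial ribosomal protein (Mrpl and Mrps), and every gene whose name begins with Eif or Eef, the prefixes of eukaryotic initiation and elongation factors. 1 further site, on the Y chromosome, had a fitting name and was left out. Cytosolic ribosomal proteins gave 27 sites in 20 genes, mitochondrial ribosomal proteins 6 sites in 5 genes, and translation factors 10 sites in 7 genes. All 7 factor genes were Eif genes. By its name the class also takes in Eif2ak1, a kinase that acts on eIF2, and Eif4ebp1, a repressor of the cap-binding protein. Where a gene had several sites they are numbered from 5′ to 3′ along its strand. Names alone chose the sites, and 1 of them, Rplp0-ps1, is a pseudogene in RefSeq that lies inside the span of Flg.

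The study measured m5C by bisulfite treatment of polyadenylated RNA, which turns unmodified cytosine into uracil and leaves m5C as cytosine, so the share of reads that still carry a cytosine is the m5C level. All 12 libraries came from wild-type (WT) C57BL/6 mice of 8 to 10 weeks, with no treatment named: 1 female library of heart, 4 female libraries of muscle, 1 female library of liver, and 1 female and 1 male library each of small intestine, lung and spleen. The deposited table has a single set of columns for each tissue, so no value carries a spread between animals, and tissue cannot be told apart from sex or from the number of libraries. Every test therefore compares the deposited columns, and it covers counting error only. Levels are given where at least 20 reads covered the site. Each column is bulk tissue, so fewer cells of a type and less RNA per cell cannot be told apart, and a level is an average over the transcripts of all cells.

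The ribosome is built of RNA and proteins in a large (60S) and a small (40S) subunit, and mitochondria have a ribosome of their own whose proteins are encoded in the nucleus and imported. Initiation factors bring the messenger RNA, the first transfer RNA and the small subunit together. Transcripts of cytosolic ribosomal proteins are short, very abundant and begin with a run of pyrimidines through which the mTOR pathway sets their translation. In mammalian mRNA m5C is known to be written mainly by the RNA methyltransferase NSUN2, and heart and skeletal muscle are tissues rich in mitochondria.

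RefSeq promoter windows on GRCm38.p6, which run from 250 bases before to 50 after a gene's annotated start, held 8 of the 43 sites. These are shown because few of the sites close to the 5′ ends of the genes differed between tissues. Each line gives the strand of the gene from 5′ to 3′, with the listed cytosine or cytosines in capitals.
Eif3i, chr4:129600586-129600615, minus strand: tcctcgcgtcaccgCcaggatggtgagttc
Rps19 sites 1 to 4, chr7:24884711-24884740, plus strand: gccgggctttctggCCCCaagagctcgtgc
Rpl13a, chr7:45128708-45128737, minus strand: cctttcccaggcggCtgccgaagatggcgg
Rpl14, chr9:120571517-120571546, plus strand: cttctcgctgagcgCcgccaacatggtgag
Rpl26 site 1, chr11:68901595-68901615, plus strand: ccttttgcggccatCggtgga
The Eif3i stretch was read from the window of Tmem234, which lies on the opposite strand, and the Rpl26 stretch ends with its window.

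In Rpl13a, Rpl14 and Eif3i an ATG stood a few bases after the listed cytosine, 9 bases on in Rpl13a, 8 in Rpl14 and 5 in Eif3i, and in Rpl14 and Eif3i the 2 letters after that ATG were GT. An ATG within the next 15 bases was present at 3 of 7 sites with enough sequence (42.9%), of which 4 are the neighbouring Rps19 sites that share their sequence. Over all listed sites in such windows, these included, the figure was 8 of 114 (7.02%). The search for an ATG was not planned beforehand, and the shares were not tested. The letters CNGGG and CTCCA were looked for on the site's strand with the listed cytosine as their first base. CNGGG was present at 0 of 8 sites and CTCCA at 0 of 8, against 19 of 124 (15.3%) and 10 of 124 (8.06%) of all listed sites in promoter windows. The reference base was C at all 130 listed sites that fell in a window, these 8 included.

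By gene annotation, all 43 sites lay inside the RefSeq span of the gene they are named for, and 0 overlapped an annotated snoRNA. Exon, intron and UTR positions were not analysed here. Symbols of the form gene-ps, which RefSeq gives to pseudogenes, existed for 13 of the 32 genes (18 sites), Rps19 having 13 of them and Rps15a 8, and reads shared with such copies leave those sites uncertain. At least 20 reads covered 198 of the 258 combinations of site and tissue, another 16 had 10 to 19 reads, and 44 were blank. Fewest sites were covered in lung and spleen, 21 and 27 of the 43. The 43 sites together had 192888 reads in heart and 211295 in muscle, against 136247 in liver and 245837 in small intestine, with 35513 in lung and 98669 in spleen. Those sums were between 4.51% (muscle) and 32.4% (spleen) of the reads at all listed sites of the tissue. As a check of the tissue labels, with blank cells counted as 0, listed sites in skeletal muscle genes (Myh1, Myh4, Actn3 and Ryr1) had 1731540 reads in muscle, 831 in lung, 72 in liver, 21 in spleen and 0 in heart and small intestine, the albumin gene Alb had 1177520 in liver, 66 in lung, 29 in muscle and 0 elsewhere, and the small intestine genes Lyz1 and Defa24 had 13791 in small intestine and at most 664 elsewhere. Abca3, the lung gene with a listed site, had 981 reads in lung and 1001 in liver, and the marker genes fixed for heart and spleen had no listed site, so those labels could not be checked.

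Levels of m5C at these sites were highest in heart and muscle, lower in liver, and lowest in small intestine, lung and spleen. The tissues differed at 26 of the 41 sites that could be tested (63.4%), against 1043 of 1916 (54.4%) of all listed sites. A site counted as differing when the two-sided Fisher's exact test between any pair of tissues had an adjusted p under 0.05 and its levels spanned at least 10 percentage points. Of the 26, heart was highest at 10, muscle at 9, liver at 5 and small intestine at 2, and neither lung nor spleen at any. Of the 1043 over all listed sites, heart was highest at 328, muscle at 523 and liver at 105. Small intestine was highest at 54 of them, spleen at 18 and lung at 15. Among the 5 liver sites, those in Eif4a1 had too few reads in heart and muscle for a comparison. At the others, Rpl3 and Eif4ebp1, liver was not separated from heart (adjusted p = 0.126 and 0.116, Fisher's exact test). The lowest tissue among the 26 was lung at 12, spleen at 8, small intestine at 4 and liver at 2. Over the 1043 it was lung at 343, spleen at 233, small intestine at 223, liver at 122, muscle at 66 and heart at 56. A tie went to the first tissue in the order heart, muscle, liver, small intestine, lung, spleen. Mrps25, counted for liver, tied at 0% with lung. Eif4g1 site 2 and Eif4a1 sites 1 and 2, counted for small intestine, also tied at 0% with lung. Rps15, Eif3e and Eif4a1 site 3, counted for lung, tied at 0% with spleen. By class the tissues differed at 12 of 25 cytosolic ribosomal protein sites (48%), 5 of 6 mitochondrial ribosomal protein sites (83.3%) and 9 of 10 translation factor sites (90%). The share over all 41 is close to that of the whole table, and neither it nor the difference between classes was tested. The median span of a site was 14.4 points here and 12.3 points over all listed sites.

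**Figure D1:**
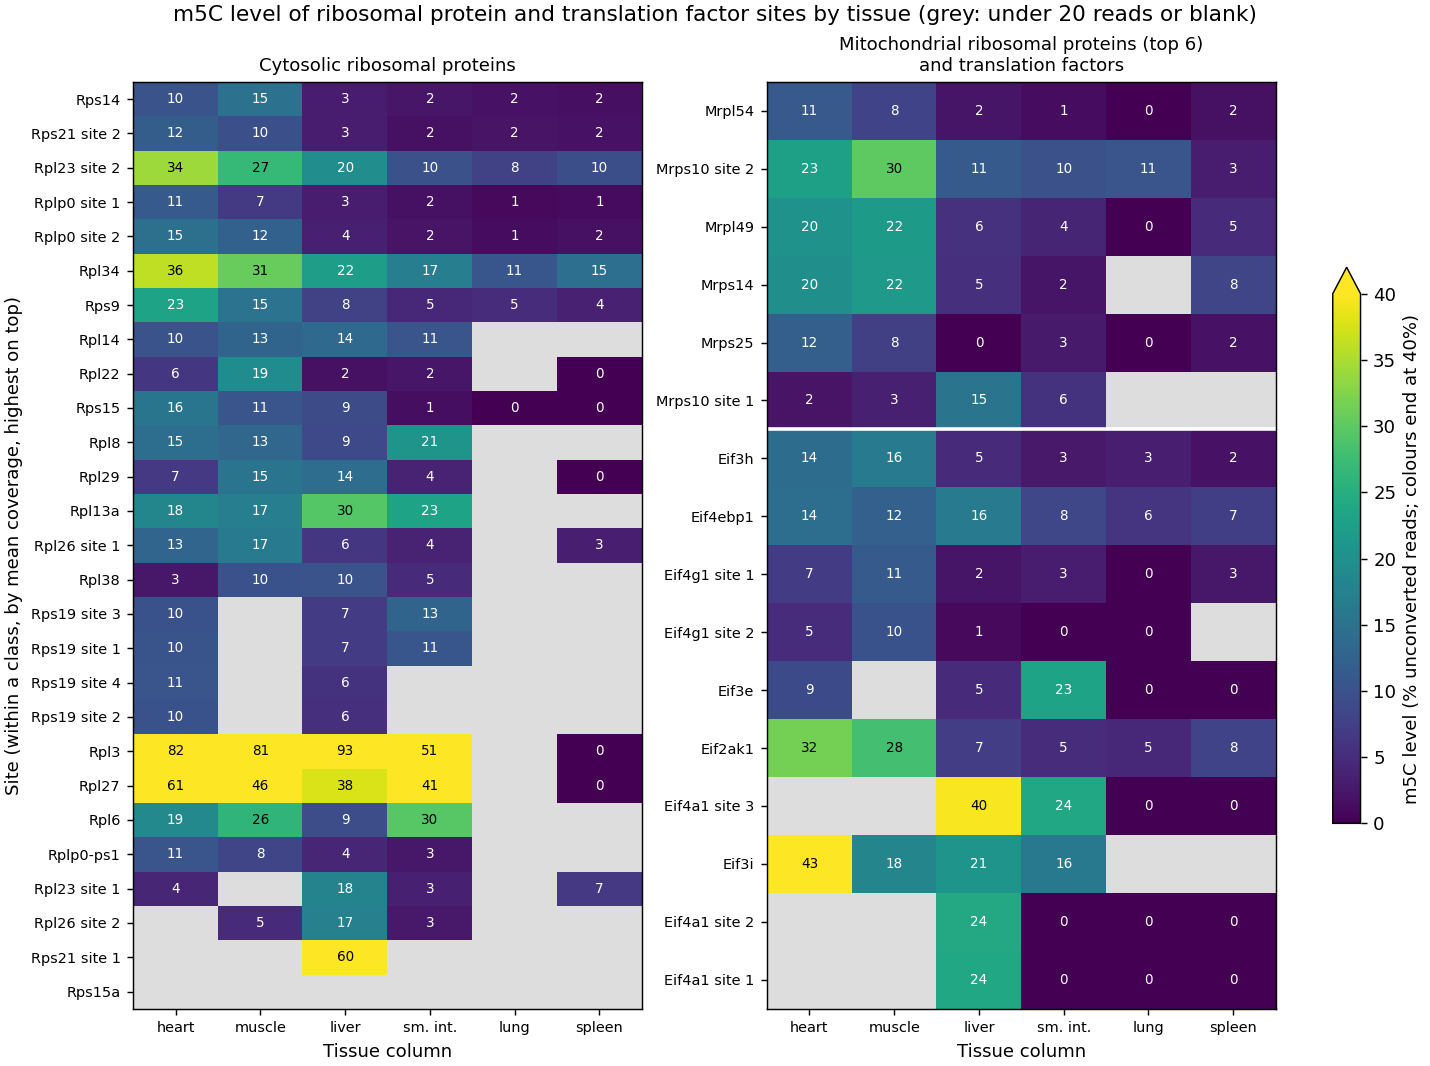
Heat map of the m5C level in percent at each of the 43 sites (down the page, by class) in the 6 tissues (across), with grey where fewer than 20 reads covered the site. Heart and muscle hold most of the high values among cytosolic and mitochondrial ribosomal protein genes, and lung and spleen hold most of the grey and of the values near 0%.

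The authors' own calls, which belong to the same tissue columns as the levels and are not separate evidence, ran in the same order. Among sites with at least 20 reads they called m5C at 29 of 37 in heart (52.4% of all listed sites so covered), 19 of 32 in muscle (53%), 15 of 42 in liver (31.5%), 8 of 39 in small intestine (18.5%), 2 of 21 in lung (11.1%) and 1 of 27 in spleen (9.66%). A level of at least 10% was reached by 29 of 37 sites in heart (57.9% of all listed sites), 25 of 32 in muscle (61.3%), 18 of 42 in liver (36.5%), 12 of 39 in small intestine (24.2%), 2 of 21 in lung (13.7%) and 1 of 27 in spleen (12.2%). The authors called 39 of the 43 in at least 1 tissue and 4 in none. A site can have entered the table because it was high in a tissue, so such counts follow partly from the listing.

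The 16 sites covered in all 6 tissues allow a comparison on the same positions. Their median level was 14.6% in heart and 13.7% in muscle, then 5.28% in liver and 3.05% in small intestine, with 2.09% in lung and 2.33% in spleen. Over all 802 listed sites covered in all 6 tissues the medians were 10.9% in heart and 12.2% in muscle, then 5.11% in liver and 2.93% in small intestine, with 1.78% in lung and 1.31% in spleen. Heart was the highest tissue at 10 of the 16, muscle at 5 and liver at 1. Over the 802 listed sites muscle was highest at 374, heart at 247 and liver at 90. For the 8 cytosolic ribosomal protein sites among the 16 the median was 15.2% in heart and 13.7% in muscle, then 5.61% in liver and 2.25% in small intestine, with 2.09% in lung and 1.86% in spleen. Heart was highest at 7 of those 8 and muscle at 1.

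**Figure D2:**
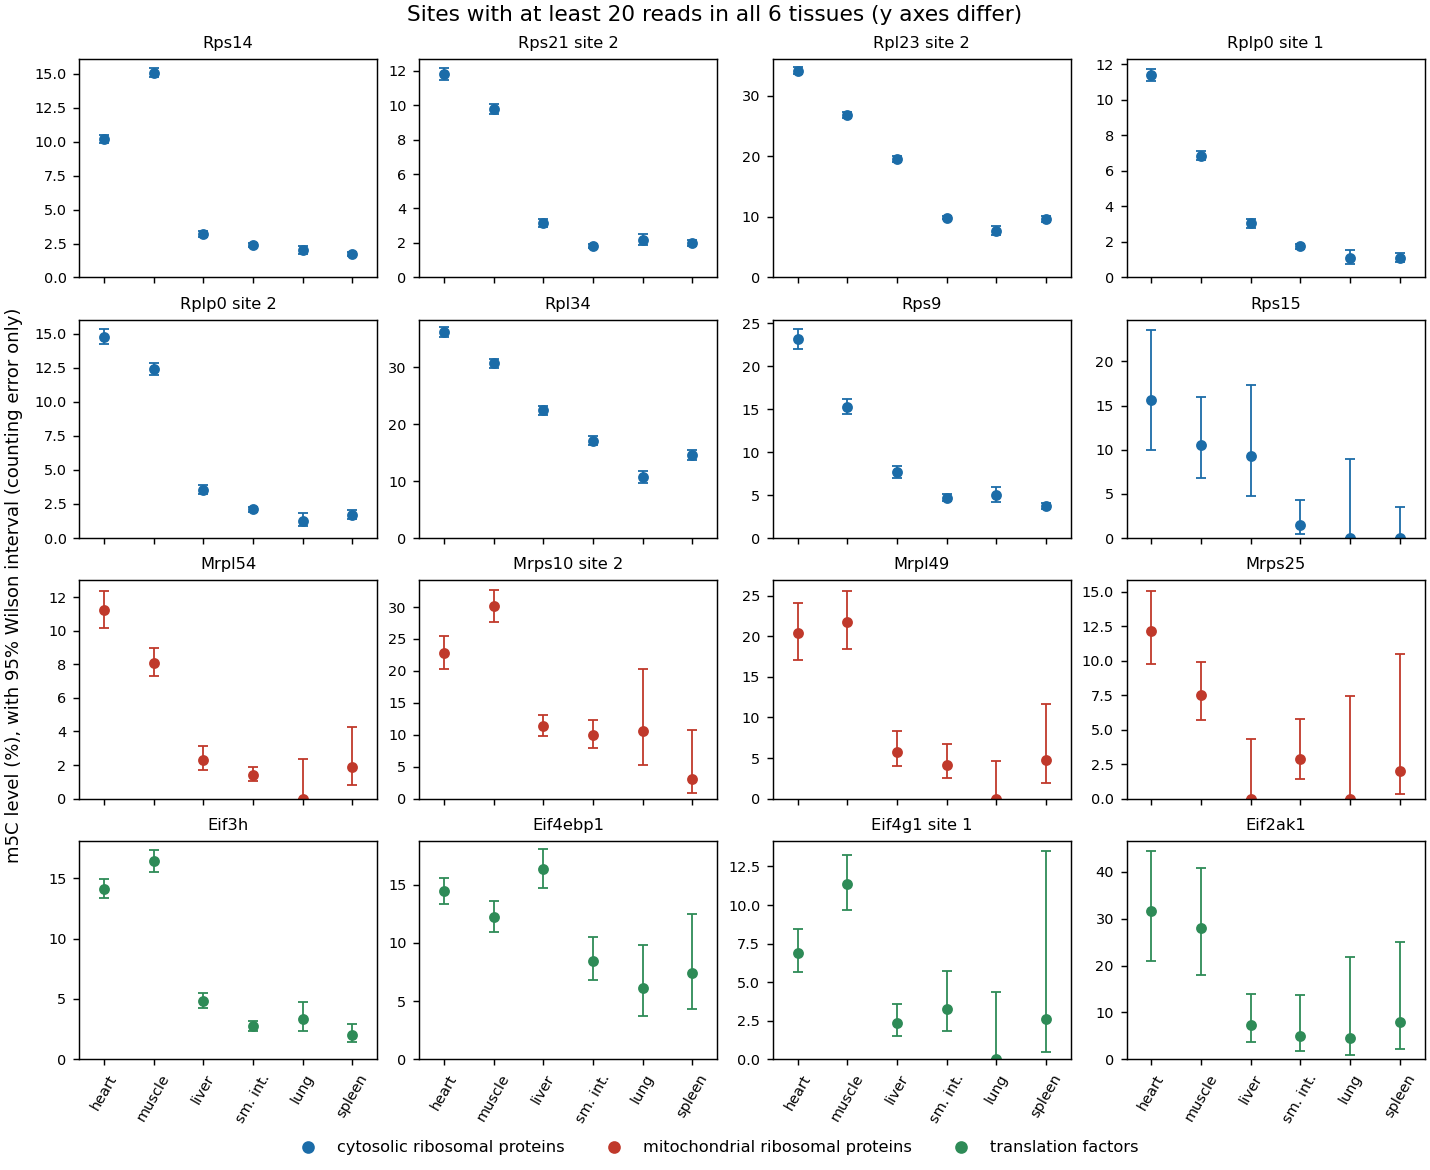
Level of m5C in percent in each tissue at the 16 sites covered by at least 20 reads in all 6 tissues, with bars for 95% Wilson intervals, which cover counting error only. Heart or muscle is the highest point at 15 sites and liver at 1, the repressor Eif4ebp1.

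Among proteins of the large cytosolic subunit, Rpl34 and the second Rpl23 site carried the highest levels at high coverage. Rpl34 is a 60S protein specific to eukaryotes and archaea. Its site (chr3:130729132, minus strand) was at 36.2% in heart (4974 of 13736 reads), 30.7% in muscle (3900 of 12708), 22.4% in liver (2406 of 10722), 17.1% in small intestine (1706 of 9960), 10.7% in lung (318 of 2973) and 14.6% in spleen (934 of 6415). The authors called this site in all 6 tissues, the only such case among the 43. Every neighbouring pair in that order differed by Fisher's exact test, heart from muscle by 5.52 points (adjusted p = 3.55e-20) and lung from spleen by −3.86 points (adjusted p = 9.13e-05), though only differences of at least 10 points count as calls.

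Rpl23 sits at the face where the subunits meet and, in human cells, binds the p53 regulator MDM2. Site 2 of Rpl23 (chr11:97781822, minus strand) was at 34.1% in heart (10118 of 29669 reads), 26.8% in muscle (7606 of 28405), 19.6% in liver (4714 of 24064), 9.88% in small intestine (4474 of 45289), 7.70% in lung (327 of 4247) and 9.66% in spleen (1247 of 12908). Heart exceeded muscle by 7.33 points (adjusted p = 3.16e-80, Fisher's exact test), while small intestine and spleen, 0.22 points apart, were not separated (adjusted p = 0.988). The order of the 6 tissues was the same as at Rpl34, with lung lowest at both.

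Rplp0 forms the base of the stalk on which elongation factors land, and its gene had a pair of sites 48 bases apart. Site 1 (chr5:115560933, plus strand) was at 11.4% in heart (3868 of 33967 reads), 6.86% in muscle (2276 of 33194), 3.05% in liver (541 of 17757), 1.74% in small intestine (513 of 29419), 1.09% in lung (32 of 2936) and 1.10% in spleen (81 of 7378). Site 2 (chr5:115560981) was at 14.8% in heart (2657 of 17971), 12.4% in muscle (2489 of 20097), 3.54% in liver (358 of 10104), 2.11% in small intestine (574 of 27249), 1.28% in lung (31 of 2419) and 1.72% in spleen (110 of 6399). Both sites stepped down from heart through muscle, liver and small intestine, each step past the test. Heart exceeded muscle by 4.53 points at site 1 (adjusted p = 3.33e-91, Fisher's exact test) and by 2.40 points at site 2 (adjusted p = 9.14e-11). Lung and spleen were not separated at either.

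In the small cytosolic subunit, Rps9, Rps14 and Rps21 were read deeply. Rps9, a protein of the 40S body with a part in decoding accuracy known from bacteria and yeast, had its site 195 bases from the 3′ end of the gene (chr7:3706703, plus strand). It was at 23.2% in heart (1190 of 5133 reads), 15.2% in muscle (1032 of 6771), 7.68% in liver (451 of 5874), 4.68% in small intestine (451 of 9645), 5.01% in lung (125 of 2493) and 3.68% in spleen (434 of 11791). Heart was above muscle by 7.94 points (adjusted p = 1.42e-26) and muscle above liver by 7.56 points (adjusted p = 1.21e-39, Fisher's exact test for both), and lung was not separated from small intestine.

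Rps14, a 40S platform protein whose loss is a known part of the human 5q- syndrome, was the most covered of the 43 and broke the order. It was at 10.2% in heart (3892 of 38166 reads), 15.1% in muscle (7544 of 50052), 3.19% in liver (899 of 28146), 2.40% in small intestine (1472 of 61453), 2.01% in lung (223 of 11119) and 1.71% in spleen (517 of 30290). Muscle was the highest tissue, and heart minus muscle was −4.87 points (adjusted p = 3.91e-101, Fisher's exact test). It was the only heavily read cytosolic ribosomal protein site with muscle above heart.

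Rps21 is a small eukaryote-specific 40S protein. Site 2 (chr2:180257803, plus strand) was at 11.8% in heart (3909 of 33156 reads), 9.76% in muscle (3957 of 40562), 3.14% in liver (775 of 24675), 1.80% in small intestine (864 of 47960), 2.18% in lung (162 of 7445) and 1.99% in spleen (417 of 20908). Its span of 9.99 points fell just under the 10 points required, so it is not among the 26, although heart exceeded muscle by 2.03 points (adjusted p = 1.11e-17, Fisher's exact test). The neighbouring values inside and outside that limit were 10.1 points at the second Eif4g1 site and 9.99 points here.

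Some of the same genes also held thinly read sites at other levels. Site 1 of Rps21, 19 bases before site 2, had 6 unconverted of 11 reads in heart, 12 of 20 in liver (60%, Wilson interval 38.7% to 78.1%), 7 of 15 in small intestine and 0 of 15 in spleen, and was blank in muscle and lung. Coverage at site 2 was 3014 times that at site 1 in heart. Site 1 of Rpl23, 254 bases before site 2, had 1 unconverted of 23 reads in heart, 5 of 28 in liver, 2 of 58 in small intestine and 2 of 30 in spleen, where site 2 had 1290 times the coverage in heart. Why coverage differed so much within the same gene was not tested.

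Cytosolic sites of low coverage had their high tissue in more varied places. Rpl3, which reaches toward the peptidyl transferase centre, had the highest levels of all 43 (chr15:80079853, minus strand). It was at 82.0% in heart (50 of 61 reads), 80.6% in muscle (29 of 36), 92.8% in liver (77 of 83), 51.3% in small intestine (20 of 39) and 0% in spleen (0 of 20). Intervals ran from 85.1% to 96.6% in liver and from 36.2% to 66.1% in small intestine, and 0 of 20 reads in spleen allows a level of up to 15%. Small intestine lay below heart by 30.7 points (adjusted p = 0.0039) and spleen below heart by 82.0 points (adjusted p = 1.34e-10, Fisher's exact test for both), while RefSeq lists 2 gene-ps copies of Rpl3.

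Rpl27, a 60S protein, was at 60.8% in heart (31 of 51 reads), 46.4% in muscle (13 of 28), 37.7% in liver (20 of 53), 40.9% in small intestine (18 of 44) and 0% in spleen (0 of 30, which allows up to 10%). Spleen was below each of the other covered tissues, by 60.8 points from heart (adjusted p = 3.82e-08) and 37.7 points from liver (adjusted p = 0.000261, Fisher's exact test for both), and no other pair was called. Rps15, a protein of the 40S head near the decoding site, was at 15.6% in heart (17 of 109 reads), 10.5% in muscle (18 of 171), 9.30% in liver (8 of 86), 1.49% in small intestine (3 of 201), 0% in lung (0 of 39) and 0% in spleen (0 of 106). Heart and muscle were above lung and spleen there, heart above spleen by 15.6 points (adjusted p = 3.17e-05), and heart and muscle were not separated (adjusted p = 0.416, Fisher's exact test for both).

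Rpl22, an RNA-binding 60S protein that cells can largely do without because of the paralog Rpl22l1, was called higher in muscle than in each of the 4 other covered tissues. It was at 6.25% in heart (9 of 144 reads), 19.4% in muscle (84 of 433), 1.82% in liver (1 of 55), 2.38% in small intestine (1 of 42) and 0% in spleen (0 of 34). Heart minus muscle was −13.1 points (adjusted p = 0.000544, Fisher's exact test). Rpl29, another 60S protein, was at 6.62% in heart (10 of 151 reads), 15.4% in muscle (10 of 65), 14.3% in liver (13 of 91), 3.90% in small intestine (8 of 205) and 0% in spleen (0 of 22), and muscle and liver each exceeded small intestine. Its differences were 11.5 points for muscle minus small intestine (adjusted p = 0.00606) and 10.4 points for liver minus small intestine (adjusted p = 0.0105, Fisher's exact test for both).

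The remaining cytosolic sites away from the 5′ ends showed no difference that passed. Rpl38, a 60S protein through which mouse embryos translate a set of Hox mRNAs, was at 2.60% in heart (2 of 77 reads), 10.0% in muscle (4 of 40), 10.3% in liver (8 of 78) and 4.72% in small intestine (12 of 254). Site 2 of Rpl26 was at 4.88% in muscle (2 of 41), 17.4% in liver (8 of 46) and 2.70% in small intestine (1 of 37), with 13 reads in heart. The pseudogene Rplp0-ps1 was at 10.5% in heart (4 of 38), 8.33% in muscle (4 of 48), 4.26% in liver (2 of 47) and 2.56% in small intestine (1 of 39). Rps15a had 10 reads in heart and 10 in muscle and no other coverage, and it could not be tested.

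Few sites close to the 5′ ends of these genes differed between tissues. Within 150 bases of the annotated 5′ end lay 10 of the 43 sites (23.3%), in Rpl6, Rpl8, Rpl13a, Rpl14, Rpl26, Rps19 and Eif3i, against 151 of 2291 listed sites with a span (6.59%). Of these 10, 1 differed between tissues, against 25 of the 31 tested elsewhere (80.6%); over all listed sites the counts were 33 of 103 (32%) near 5′ ends and 944 of 1684 (56.1%) elsewhere. The 4 Rps19 sites are consecutive bases, so the 10 stand for 7 genes. The limit of 150 bases was not fixed beforehand, and the contrast was not tested. The highest tissue of the 10 sites was small intestine at 4, heart at 3, liver at 2 and muscle at 1. The small intestine cases include Rps19 sites 1 and 3, on 28 and 31 reads there, with muscle blank and no difference that passed. Over all 103 listed sites tested near 5′ ends, it was heart at 34, muscle at 27, liver at 25, small intestine at 16 and lung at 1.

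Depth is measured beside the low count of differing sites. Mean coverage had a median of 59.7 reads at the 10 sites near the 5′ end and of 55.0 reads at the 23 thinly read sites elsewhere, of which 16 of the 21 tested differed. None of the 10 had 20 reads in lung and 1 had them in spleen, the tissues most often lowest among sites that differed. The part of coverage and of the missing tissues in the low count was not tested. Where the sites were covered, the median level was 11.8% in heart (10 sites), 16.9% in muscle (6 sites), 8.03% in liver (10 sites) and 14.6% in small intestine (8 sites). Over all listed sites near 5′ ends the medians were 11.6% in heart, 11.3% in muscle, 10.95% in liver and 8.43% in small intestine.

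Rpl8, one of the 60S proteins close to the peptidyl transferase centre, had the 1 site of this group that differed. It was at 14.5% in heart (28 of 193 reads), 13.3% in muscle (13 of 98), 8.88% in liver (15 of 169) and 20.7% in small intestine (44 of 213), and liver minus small intestine was −11.8 points (adjusted p = 0.00706, Fisher's exact test). Rpl6, a 60S protein, was at 18.8% in heart (9 of 48 reads), 26.2% in muscle (11 of 42), 9.38% in liver (3 of 32) and 29.6% in small intestine (24 of 81). Small intestine held the highest value at both, which no heavily read ribosomal protein site shared.

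Rpl13a, which in human monocytes also leaves the ribosome to silence inflammatory mRNAs, was at 18.4% in heart (18 of 98 reads), 17.1% in muscle (18 of 105), 29.5% in liver (31 of 105) and 23.2% in small intestine (51 of 220). Rpl14, a 60S protein, was at 10.2% in heart (27 of 265), 12.8% in muscle (19 of 148), 13.6% in liver (21 of 154) and 10.6% in small intestine (48 of 452). Site 1 of Rpl26, a protein that binds the p53 mRNA in human cells, was at 13.1% in heart (17 of 130), 16.7% in muscle (11 of 66), 6.32% in liver (6 of 95), 3.76% in small intestine (5 of 133) and 3.33% in spleen (1 of 30). Rpl14 spanned 3.45 points over the tissues, the narrowest range of the 41 tested. At Rpl26 muscle exceeded small intestine by 12.9 points (adjusted p = 0.00775, Fisher's exact test), but over all pairs the site did not pass (adjusted p = 0.0601).

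Rps19 assembles the 40S subunit and is the gene most often mutated in human Diamond-Blackfan anaemia. Its 4 consecutive cytosines, the capitals in the sequence above, were alike: 10.4%, 10.1%, 10.1% and 10.6% in heart on 144 to 151 reads, and 6.94%, 5.52%, 7.18% and 5.91% in liver on 173 to 186 reads. In small intestine site 1 was at 10.7% (3 of 28 reads) and site 3 at 12.9% (4 of 31), and muscle was blank. The values hardly moved along the 4 bases, and none of them separated heart from liver.

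Among mitochondrial ribosomal proteins, 5 of 6 sites differed (54.4% over all listed sites) and all 5 were highest in muscle or heart. Heart was also highest at 328 and muscle at 523 of the 1043 listed sites that differed. The small-subunit protein Mrps10 had the widest span at site 2 (chr17:47378349, plus strand), with 22.8% in heart (221 of 971 reads), 30.1% in muscle (399 of 1326), 11.3% in liver (161 of 1424), 9.96% in small intestine (73 of 733), 10.6% in lung (7 of 66) and 3.12% in spleen (2 of 64). Muscle minus liver was 18.8 points (adjusted p = 9.24e-34) and heart minus muscle −7.33 points (adjusted p = 0.000437, Fisher's exact test for both). Site 1, 8996 bases upstream, had another profile, at 2.04% in heart (1 of 49), 3.45% in muscle (4 of 116), 15.4% in liver (10 of 65) and 5.88% in small intestine (2 of 34). At that site muscle minus liver was −11.9 points (adjusted p = 0.0152) and heart minus liver −13.3 points (adjusted p = 0.0499), yet over all pairs it did not pass (adjusted p = 0.0655, Fisher's exact test for all).

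Mrps14 and Mrpl49, of the small and the large mitochondrial subunit, had almost the same profile. Mrps14 (chr1:160199651, plus strand) was at 19.96% in heart (101 of 506 reads), 21.5% in muscle (97 of 451), 5.31% in liver (17 of 320), 2.31% in small intestine (7 of 303) and 8.33% in spleen (4 of 48). Mrpl49 (chr19:6054169, minus strand) was at 20.4% in heart (105 of 515), 21.8% in muscle (110 of 504), 5.75% in liver (26 of 452), 4.12% in small intestine (15 of 364), 0% in lung (0 of 80) and 4.76% in spleen (4 of 84). Heart and muscle were not separated at either site, and both exceeded liver, heart by 14.6 points at each (adjusted p = 4.64e-09 at Mrps14 and 5.85e-11 at Mrpl49, Fisher's exact test).

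At Mrps25 and Mrpl54 heart stood above muscle. Mrps25, a small-subunit protein, was at 12.2% in heart (71 of 583 reads), 7.53% in muscle (46 of 611), 0% in liver (0 of 85, which allows up to 3.53%), 2.85% in small intestine (7 of 246), 0% in lung (0 of 48) and 2% in spleen (1 of 50). Mrpl54, a large-subunit protein, was at 11.2% in heart (348 of 3099), 8.09% in muscle (346 of 4278), 2.29% in liver (39 of 1705), 1.40% in small intestine (39 of 2791), 0% in lung (0 of 158) and 1.85% in spleen (5 of 270). Heart minus muscle was 4.65 points at Mrps25 (adjusted p = 0.0248) and 3.14 points at Mrpl54 (adjusted p = 3.34e-05, Fisher's exact test for both), under the 10 points of a call. The medians of the 4 mitochondrial sites covered in all 6 tissues were 16.3% in heart and 14.96% in muscle, then 4.02% in liver and 3.48% in small intestine, with 0% in lung and 2.56% in spleen.

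The translation factors had their high tissue in 4 different places. Of the 9 sites that differed, liver was highest at 4, muscle at 3, heart at 1 and small intestine at 1, and 3 of the 4 liver sites lie within 9 bases of each other in a single gene. Those 3 lacked 20 reads in heart and in muscle, and the small intestine site was blank in muscle. A tissue without 20 reads could not be the highest. Among subunits of eIF3, the scaffold that loads the small subunit, Eif3h was read most deeply. It was at 14.1% in heart (1008 of 7141 reads), 16.4% in muscle (1091 of 6649), 4.81% in liver (233 of 4840), 2.72% in small intestine (168 of 6183), 3.35% in lung (30 of 895) and 2.02% in spleen (26 of 1285), and heart minus muscle was −2.29 points (adjusted p = 0.000855, Fisher's exact test).

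Eif3e, another eIF3 subunit, was the factor gene with the small intestine on top. Its site (chr15:43265514, minus strand) was at 9.01% in heart (21 of 233 reads), 4.79% in liver (8 of 167), 23.2% in small intestine (48 of 207, interval 18% to 29.4%), 0% in lung (0 of 62, which allows up to 4.84%) and 0% in spleen (0 of 92, which allows up to 3.26%), and was blank in muscle. Heart minus small intestine was −14.2 points (adjusted p = 0.000188) and small intestine minus spleen 23.2 points (adjusted p = 3.04e-07, Fisher's exact test for both). The authors called this site in no tissue. Eif3i, the subunit whose site lies near the 5′ end, was at 42.6% in heart (20 of 47, interval 29.5% to 56.7%), 18.2% in muscle (6 of 33), 20.8% in liver (11 of 53) and 16.2% in small intestine (6 of 37). Heart exceeded small intestine by 26.3 points (adjusted p = 0.033, Fisher's exact test), but the site did not pass over all pairs (adjusted p = 0.143).

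The cap-binding side of initiation gave 3 genes. Eif4a1, the RNA helicase that unwinds the 5′ leader, had 3 sites within 9 bases (chr11:69667223 to 69667232, minus strand) near the 3′ end of the gene. At site 3 the level was 39.5% in liver (17 of 43 reads), 23.8% in small intestine (20 of 84), 0% in lung (0 of 25) and 0% in spleen (0 of 44). Heart had 5 unconverted of 13 reads there, and muscle was blank. At site 2 it was 24.1% in liver (7 of 29), and at site 1 24.0% in liver (6 of 25), with 0 unconverted reads in small intestine (of 59 and of 58), lung (of 24 and of 21) and spleen (of 46 and of 41). Sites 1 and 2 were blank in heart and muscle, so liver was not compared with those tissues at any of the 3 sites. Liver exceeded spleen at all 3, by 39.5 points at site 3 (adjusted p = 9.75e-06), 24.1 points at site 2 (adjusted p = 0.00439) and 24.0 points at site 1 (adjusted p = 0.00991, Fisher's exact test for all), while small intestine had unconverted reads at site 3 alone. The 3 sites lie close enough for the same reads to cover them, and how many reads they share was not measured.

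Eif4g1 is the scaffold that joins the cap-binding protein to the helicase and to eIF3. Site 1 (chr16:20673324, plus strand) was at 6.90% in heart (87 of 1261 reads), 11.3% in muscle (136 of 1200), 2.33% in liver (20 of 858), 3.25% in small intestine (11 of 338), 0% in lung (0 of 84) and 2.63% in spleen (1 of 38). Site 2, 180 bases downstream, was at 5.03% in heart (44 of 875), 10.1% in muscle (65 of 642), 1.05% in liver (10 of 948), 0% in small intestine (0 of 366) and 0% in lung (0 of 34). Muscle was highest at both, and heart minus muscle was −4.43 points at site 1 (adjusted p = 0.000629, Fisher's exact test).

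Eif4ebp1 encodes the repressor that holds the cap-binding protein until mTOR phosphorylates it. It was at 14.4% in heart (538 of 3725 reads), 12.2% in muscle (282 of 2308), 16.4% in liver (314 of 1919), 8.49% in small intestine (77 of 907), 6.10% in lung (15 of 246) and 7.41% in spleen (12 of 162). Liver was not below heart here (heart minus liver −1.92 points, adjusted p = 0.116) and exceeded muscle (muscle minus liver −4.14 points, adjusted p = 0.000365, Fisher's exact test for both), the one site of more than 1000 mean reads with liver on top. Eif2ak1, the heme-regulated kinase that shuts down initiation by phosphorylating eIF2, was at 31.6% in heart (18 of 57 reads), 28.1% in muscle (16 of 57), 7.34% in liver (8 of 109), 5.00% in small intestine (3 of 60), 4.55% in lung (1 of 22) and 8.00% in spleen (2 of 25). Heart exceeded liver by 24.2 points (adjusted p = 0.000314) and spleen by 23.6 points (adjusted p = 0.0489, Fisher's exact test for both), and heart and muscle were not separated.

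Pair by pair, most calls placed heart or muscle above one of the other 4 tissues. A called site had an adjusted p under 0.05 by Fisher's exact test, adjusted over every listed site covered in both tissues, and a difference of at least 10 points; the percentages in parentheses are the share of all listed sites called in that direction. Heart exceeded liver at 9 of 37 sites (19.6%) and was lower at 1 (2.65%). It exceeded small intestine at 12 of 35 (27.5%) and was lower at 1 (2.18%). It exceeded lung at 12 of 18 (33.7%) and was lower at 0 (1.25%), and it exceeded spleen at 12 of 24 (34.3%) and was lower at 0 (1.67%). The median differences over these sites were 6.29 points for heart minus liver, 9.32 for heart minus small intestine, 11.7 for heart minus lung and 10.96 for heart minus spleen, and over all listed sites 3.95, 5.86, 7.84 and 8.23 points in the same comparisons.

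Muscle exceeded liver at 7 of 32 sites (27.1%) and was lower at 1 (3.28%). It exceeded small intestine at 15 of 32 (37.4%) and was lower at 0 (2.79%). It exceeded lung at 10 of 17 (42.2%) and was lower at 0 (1.73%), and it exceeded spleen at 12 of 22 (42.6%) and was lower at 0 (2.03%). The shares called are near those of the whole table in several of these comparisons, and they share the muscle or the heart column, so they are not separate pieces of evidence.

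Between heart and muscle these sites had few calls: heart was higher at 0 of 31 (5.35%) and lower at 1 (10%), in Rpl22. In either direction that is 3.23% of these sites and 15.4% of all listed sites. Without the minimum of 10 points the count was 15 of 31, where 38.2% of all listed sites were called. The median difference was 1.24 points, with heart above muscle at 17 sites and below at 14; over all listed sites the median was −0.31 points. Among cytosolic ribosomal protein sites heart was above at 12 and below at 7 of 19, among mitochondrial ones above at 2 and below at 4 of 6, and among factors above at 3 and below at 3 of 6.

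Between the other 4 tissues calls were fewer. Liver exceeded small intestine at 4 of 39 sites (8.09%) and was lower at 2 (3.12%), exceeded lung at 5 of 21 (12.3%) and was lower at 0 (1.59%), and exceeded spleen at 5 of 27 (10.9%) and was lower at 0 (2.21%). Small intestine exceeded lung at 1 of 21 (3.89%) and was lower at 0 (1.14%), and exceeded spleen at 4 of 27 (3.36%) and was lower at 0 (0.946%). The 4 sites above spleen were in Rpl3, Rpl27, Eif3e and Eif4a1, and the 1 above lung was in Eif3e. Lung was higher than spleen at 0 of 20 (0.9%) and lower at 0 (0.337%) by Fisher's exact test with the 10-point minimum; without it, lung was lower at 2, Rpl34 and Rpl23, where 2.81% of all listed sites were called in either direction.

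**Figure D3:**
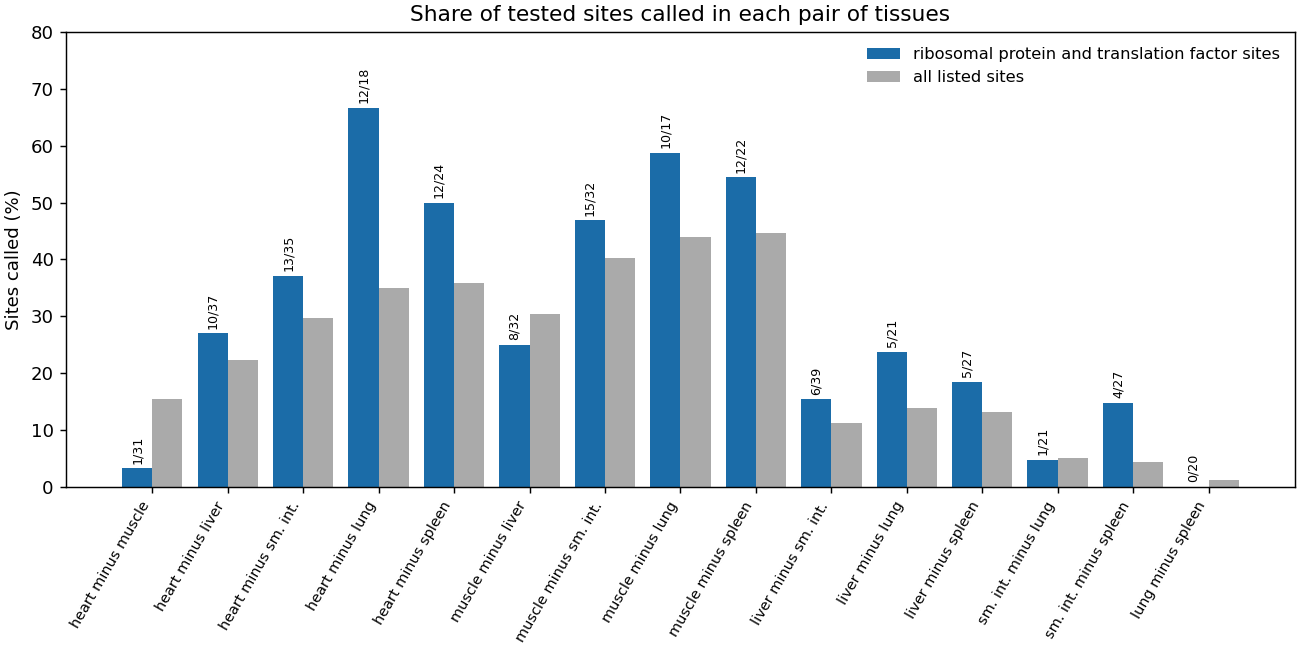
Share in percent of sites called different in each of the 15 pairs of tissues, for the ribosomal protein and translation factor sites (blue, with the number called over the number tested) and for all listed sites (grey), in either direction. The share is lower for the ribosomal protein and translation factor sites in heart minus muscle (1 of 31, against 15.4%), and in both sets the pairs of heart or muscle with another tissue hold the high bars.

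The pairs were also compared at only those sites that the authors had called in a tissue outside the pair; percentages here are the share of all listed sites under the same restriction called in either direction. Heart was called higher than liver at 8 of 22 sites (26.6%), small intestine at 11 of 23 (33.9%), lung at 8 of 12 (39.8%) and spleen at 10 of 16 (41.3%), and lower at 0. Muscle was called higher than liver at 6 of 25 (32.5%), small intestine at 13 of 29 (40.8%), lung at 10 of 15 (48.5%) and spleen at 11 of 20 (47.5%), and lower at 0. The 1 call of heart against muscle was absent in that comparison (0 of 14). This restriction was chosen after the data had been seen, and since the rule by which sites were listed is not known, the part of the listing in these counts was not tested.

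The highest tissue was also counted by depth. Of the 10 sites, in 9 genes, with a mean coverage of at least 1000 reads, heart was highest at 7, muscle at 2 and liver at 1, and 9 of the 10 differed between tissues, against 228 of 298 (76.5%) of all listed sites of that depth. Of the 31 tested sites under 1000 reads, heart was highest at 8, muscle at 8, liver at 10 and small intestine at 5. Only a tissue with at least 20 reads could be the highest. The 10 deeper sites all had 20 reads in all 6 tissues, but only 6 of the 33 sites under 1000 reads did, so the highest tissue was not picked from the same tissues at both depths. Over all listed sites heart or muscle led at both depths: of 298 sites at 1000 reads or more, heart was highest at 99, muscle at 145 and liver at 30, and of 1618 below it, heart at 528, muscle at 598 and liver at 239. The limit of 1000 reads was chosen after the values were seen, and what the depth has to do with the highest tissue was not tested.

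**Figure D4:**
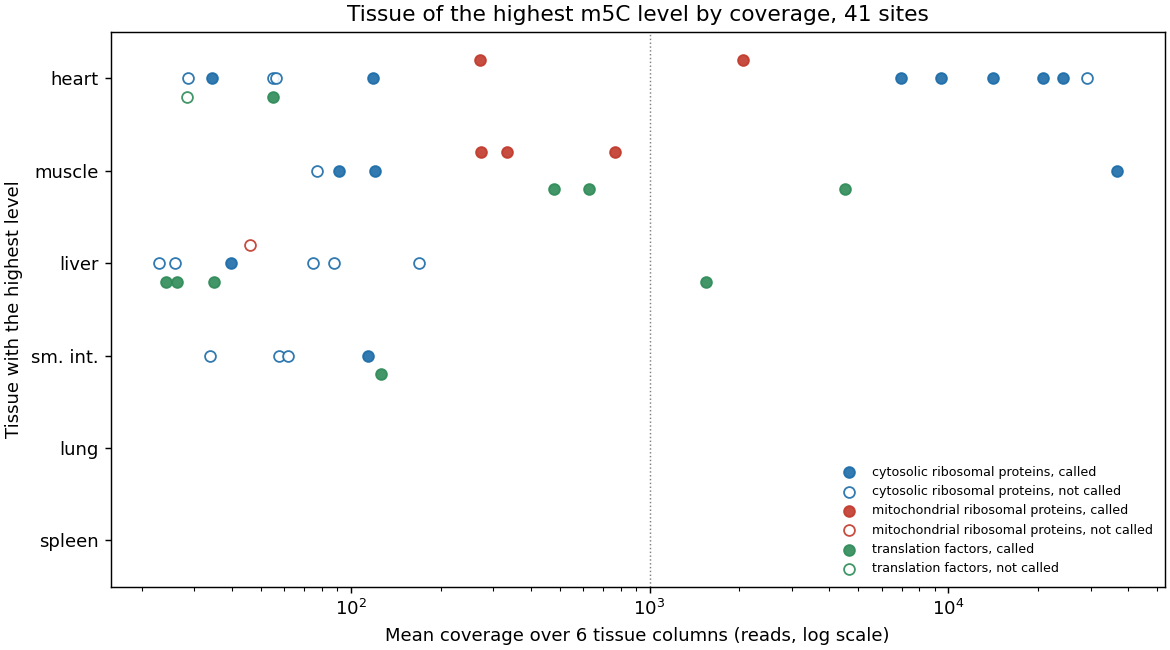
Mean coverage over the 6 tissues in reads (log scale) of each of the 41 tested sites, by the tissue in which its level was highest, with a dotted line at 1000 reads. Right of the line lie 7 sites with heart highest, 2 with muscle and 1 with liver, while the 5 sites with small intestine highest all lie left of it. Only tissues with at least 20 reads at a site could be its highest, and many sites left of the line lacked some tissues.

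Other genes of translation were listed too. The ribosome-bound scaffold Rack1 and the growth-linked Tpt1 had 1 site each, and both differed with muscle highest: Rack1 was at 23.9% in heart and 32.3% in muscle, then 9.69% in liver and 7.68% in small intestine, with 5.63% in lung and 5.11% in spleen. Of 22 tested sites in 9 genes of poly(A) and cap binding and of the mTOR pathway, 12 differed, with muscle highest at 5, heart at 4 and small intestine at 3. Many of the 22 lie in Mknk2, some on neighbouring bases. The small intestine cases include adjacent bases of Caprin1 (chr2:103771773 and chr2:103771774). Over all listed sites 54.4% of those tested differed, a share close to that of the 22. The mTOR partner Rptor had the widest span of these, with 62.98% in heart and 64.4% in muscle, then 46.3% in liver and 21.2% in small intestine, with 15.4% in lung and 8.09% in spleen (adjusted p = 1.39e-59, Fisher's exact test).

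Factors of mitochondrial translation differed at 6 of 7 sites, in 4 genes (54.4% over all listed sites), with heart highest at 4 and muscle at 2. Tufm, the mitochondrial elongation factor, was at 32.1% in heart and 8.51% in muscle, then 10.5% in liver and 8.48% in small intestine, with 8% in lung and 3.08% in spleen, so that heart stood apart from muscle. Gfm2, which recycles mitochondrial ribosomes, was at 25.9% in heart and 35.2% in muscle, then 6.37% in liver and 1.99% in small intestine, with 1.89% in lung and 1.55% in spleen at its most covered site. Aminoacyl-tRNA synthetase genes differed at 2 of 5 tested sites (54.4% over all listed sites), Cars with heart highest and Lars2 with lung highest. The termination factor Etf1 had 1 site, which did not pass, and 0 of the 21 genes listed for ribosome biogenesis had a site. Among these genes heart and muscle were again the highest tissues at most sites that differed, as they were over all listed sites, where heart led at 328 and muscle at 523 of the 1043.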

How the data were processed

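The deposited table gives for each cytosine its chromosome, position, strand and gene and, for each tissue, the coverage, m5C level, a p-value and a call, per the file headers. Coverage is a count of reads by the authors, the level a fraction by the authors, shown here in percent, and the deposited call of whether a site is m5C is true or false. The 6 deposited p-value columns were not used. The submitters' processing notes name HISAT2 2.10, SAMtools, Trimmomatic, cutadapt, bcl2fastq 2.17 and build mm10. The sources used here do not say how libraries were combined, reads filtered or sites chosen, and such filters can set both levels and coverage. Per the labels, polyadenylated RNA came from either of 2 kits.

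Unconverted reads were the level times the coverage, within 0.000179 of a whole number in all 9926 filled cells. Deposited coverage starts at 10 reads, and 20 were required. For every pair of tissues unconverted against converted reads were compared by Fisher's exact test (two-sided) over all listed sites covered in both, with Benjamini-Hochberg adjustment. For a difference between any of the tissues, the smallest p of a site times its number of pairs was adjusted over 1916 sites. Values of 1e-300 are the lowest written. Wilson intervals have a level of 95%, upper limits at 0 are 3 reads over the coverage, and both cover counting error only, since reads need not be independent molecules. SciPy 1.17.1, pandas 2.3.3 and Python 3.11.15 were used, and the tests were tested on simulated data. Sites were named with values if covered in all 6 tissues, differing between tissues, at 50% or more, highest or lowest of their class by mean level, or sharing a gene; the others are named to account for all 43. Members and gene lists were chosen with earlier results of these data known. Alternatives were other coverage limits, no minimum difference, sites called by the authors, sites without near neighbours, and tissues left out.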

Additional observations from a re-analysis of the deposited data

How the results depend on the processing

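A coverage limit of 10 reads kept all 19 counts of differing sites within 1.5 times their value, as did leaving out close neighbours, the heart column, or (added after seeing the data) the lung and spleen columns for the 4 counts over any pair of tissues. Without a minimum difference the counts were 15 for heart minus muscle, 17 for heart minus liver, 22 for heart minus small intestine, 19 for muscle minus liver, 16 for liver minus small intestine, 10 for liver minus lung, 15 for liver minus spleen, 4 for small intestine minus lung, 8 for small intestine minus spleen and 2 for lung minus spleen, and 9 others stayed within 1.5 times. At 50 reads liver minus small intestine gave 3, liver minus lung 3, liver minus spleen 0 and small intestine minus spleen 1. Among sites the authors called in at least 1 tissue, small intestine minus lung gave 0. Among sites called outside the pair (added after seeing the data), heart minus muscle gave 0, liver minus small intestine 3, liver minus lung 3, liver minus spleen 2 and small intestine minus lung 0. The cause of these shifts was not tested. A restriction to annotated exons was not run, and no replicate could be left out of a pooled column. No paired analysis was possible because the tissue columns carry no replicate numbers. Calls in lung and spleen are limited by depth: 21 and 27 of the 43 sites had 20 reads there.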
